A study of Mus musculus with 16 samples.

Results

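Heat shock chaperones are proteins that bind unfolded or partly folded clients and help them to fold, refold or avoid clumping. The 10 genes taken for this account were Hspa1a, Hspa1b, Hsp90aa1, Hspb1, Hsph1 and Dnajb1, whose messages are strongly heat-inducible, Hspa8 and Hsp90ab1, the constitutive cytosolic forms, and Hspd1 and Hspe1, which act in mitochondria. Each gene was represented by the probe set with its symbol in the platform annotation that had the highest mean over all arrays. Of these 10 genes, 7 had such a probe set, among 17097 genes on the array, and all 7 passed the filter on dim genes that left 14819 genes for testing. Hspa1a, Hsp90ab1 and Hspd1 were not analysed here. The constitutive class therefore rested on Hspa8 alone, the mitochondrial class on Hspe1 alone and the inducible class on 5 genes.

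Dermal fibroblasts from female C57Bl/6 mice were measured on 16 Affymetrix arrays, in 4 groups of 4. The groups were cultured fibroblasts of old mice (18 months), cultured fibroblasts of young mice (2 months), in vivo fibroblasts of old mice and in vivo fibroblasts of young mice. The in vivo samples, in the labels' term, were cells profiled directly after isolation from skin, and no group received a drug or carried an engineered allele per the labels. The study asked how culture bears on age-related differences in expression; each mouse gave 5000 cells for each condition, while the sources used here give neither the medium nor the time in culture.

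The response of these genes to protein damage is driven by heat shock factors, above all Hsf1, which bind repeated GAA and TTC units, called heat shock elements, in front of chaperone genes. Hspa1b and Hspa8 are HSP70 proteins, ATP-driven machines that clamp onto exposed hydrophobic stretches. Dnajb1 is a J-domain protein that delivers clients to HSP70, and Hsph1 is the HSP110 nucleotide exchange factor that resets it. In the dermis, fibroblasts carry a heavy load of secreted and cytoskeletal protein synthesis, for which folding capacity is needed.

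Heat shock elements were looked for in the RefSeq promoter windows (GRCm38.p6, 250 bases before to 50 after a gene's start) because the inducible members moved in opposite directions. Windows were found for 5 of the 7 measured members. The letters searched were GAANNTTC and TTCNNGAA, each its own reverse complement, so both strands are covered by a single search. A long match is a pair of these that share a unit, so that 3 units alternate, and was counted in either order. At least 1 short match was found in 15.1% of all 32851 windows, at least 2 in 1.96%, and a long match in 0.603%. The stretches that hold the matches are shown 5′ to 3′ on the gene's strand, with the matches in capitals.
Hspb1, chr5:135887777-135887854, plus strand: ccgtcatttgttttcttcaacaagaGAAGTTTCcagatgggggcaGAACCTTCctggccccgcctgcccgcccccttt
Hspe1, chr1:55088034-55088101, plus strand: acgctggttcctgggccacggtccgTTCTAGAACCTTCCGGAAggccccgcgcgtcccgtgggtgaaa
Hsph1 before the start, chr5:149636337-149636394, minus strand: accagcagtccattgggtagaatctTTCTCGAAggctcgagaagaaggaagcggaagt
Hsph1 after the start, chr5:149636287-149636316, minus strand: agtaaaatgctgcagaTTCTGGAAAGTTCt
Hspa1b, chr17:34959310-34959367, minus strand: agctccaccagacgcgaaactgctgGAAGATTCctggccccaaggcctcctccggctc
Hspb1 had 2 separate short matches, the first bases of which lay 117 and 97 bases before the start. Hspe1 had 3 overlapping short matches that together held 2 long matches, 89 to 79 bases before its start, and the same genomic stretch lay in a window of Hspd1, which shared 285 of its 300 bases with the Hspe1 window. Hsph1 had 3 short and 1 long match, and Hspa1b had 1 short match, 104 bases before the start. Neither of the 2 windows of Dnajb1 held these letters. A match is a run of letters, not a measured binding site, and no match says only that the letters are not in the window.

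Culture was compared with the in vivo state first, over both ages (8 arrays a side), and the chaperones split. Hspb1, Hsph1, Hspe1 and Hsp90aa1 were higher in cultured fibroblasts, Hspa1b and Dnajb1 were lower, and Hspa8 did not pass the test. All values are log2 values as deposited, a change is the cultured mean minus the in vivo mean with its standard error, and calls used limma with Benjamini-Hochberg adjustment over the 14819 genes at an adjusted p of 0.05. The calls were 6 of the 7 measured chaperones, 4 higher and 2 lower, against a background in which 79.5% of all tested genes were called, 34.8% higher and 44.7% lower. A share of 6 in 7 is near that background, so the count itself is no result about the chaperones. Their median log2 change was 0.47, the value of Hsp90aa1, against -0.11 over all tested genes. All 7 were bright, between the 88.2 and 99.6 percentiles of mean level. Of calls over all genes 43.7% were higher, and 52.5% with the filter at the 50th percentile, so all genes are not a like background. Cultured and in vivo arrays did not overlap for 4 of the 7 (Hspb1, Hsph1, Hspe1 and Dnajb1), beside 45.1% of all genes.

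**Figure D1:**
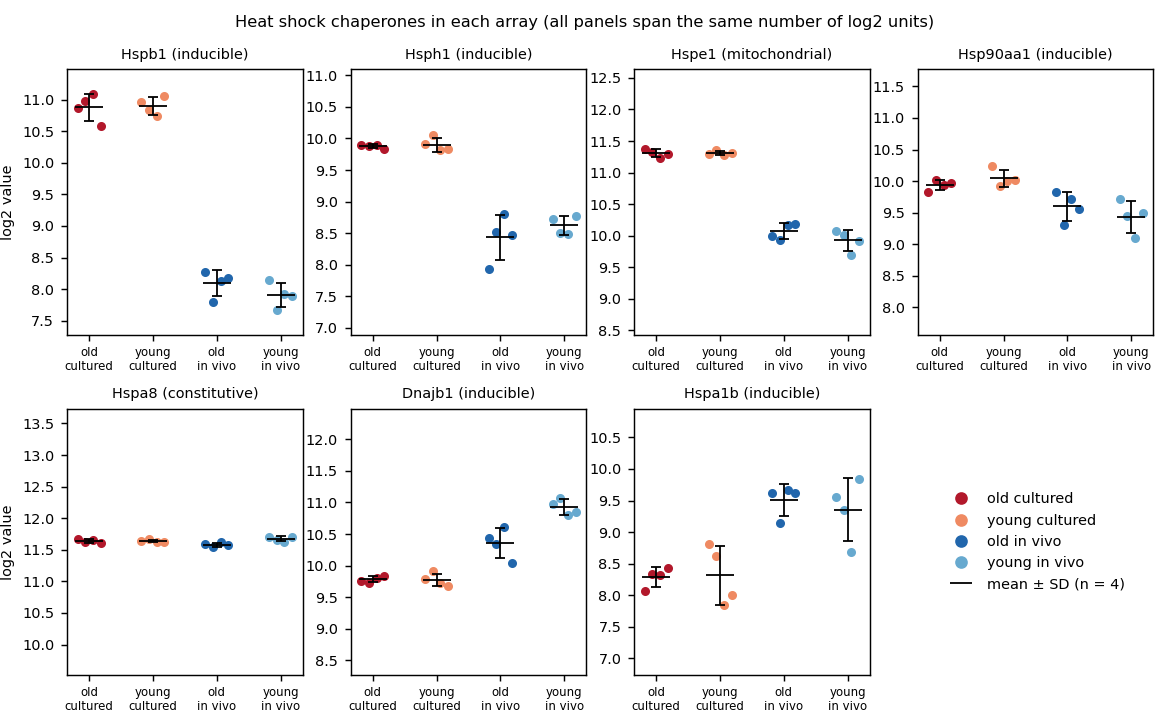
Log2 value of each measured chaperone (y axis) in every array of the 4 groups (x axis, 4 points a group), with the group mean and SD as black bars. Hspb1 sits near 10.9 in both cultured groups, against about 8 in vivo, whereas Hspa1b and Dnajb1 are lower in culture and Hspa8 spans only 11.54 to 11.71 over all arrays. Panels span equal numbers of log2 units, and levels of different probe sets are not comparable.

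Hspb1, the small heat shock protein HSP27, which holds unfolded clients and binds to actin filaments, rose most among the members. It measured 10.86, 10.98, 11.09 and 10.58 in old cultured fibroblasts and 10.96, 10.83, 10.74 and 11.06 in young cultured fibroblasts. In vivo, it measured 8.27, 7.80, 8.13 and 8.18 in old mice and 8.15, 7.67, 7.92 and 7.89 in young mice. Every cultured array lay more than 2 log2 units above every in vivo array, and the ages overlapped within each condition. The change was 2.89 ± 0.09, or 7.39-fold (limma adjusted p = 4.15e-14). An exact two-sided permutation of the arrays gave p = 0.00016, the smallest that 8 against 8 arrays can give. Both tests took the arrays as independent, and mice shared between the conditions were not modelled. The other 3 probe sets of Hspb1 were all higher in culture, by 2.95 to 3.32.

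Hsph1, the HSP110 exchange factor, rose as well. Its log2 values were 9.89, 9.88, 9.90 and 9.83 in old cultured fibroblasts and 9.92, 10.05, 9.81 and 9.83 in young cultured fibroblasts. In vivo they were 7.94, 8.52, 8.80 and 8.47 in old mice and 8.72, 8.50, 8.49 and 8.78 in young mice. The cultured arrays spanned less than 0.3 log2 units, all above the in vivo arrays, in which old replicate 1 was the lowest. The change was 1.36 ± 0.10, or 2.57-fold (limma adjusted p = 1.061e-09).

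Hspe1 encodes the mitochondrial co-chaperonin HSP10, the lid of the chamber formed by the Hspd1 product. Its log2 values were 11.37, 11.33, 11.23 and 11.30 in old cultured fibroblasts and 11.29, 11.35, 11.28 and 11.31 in young cultured fibroblasts. The in vivo values were 9.99, 9.94, 10.17 and 10.19 in old mice and 10.08, 10.01, 9.70 and 9.91 in young mice. All cultured arrays lay more than 1 log2 unit above all in vivo arrays. Hspe1 rose by 1.31 ± 0.06, or 2.48-fold (limma adjusted p = 6.486e-12), and its other probe set gave 1.61. The name of the probe set used ends in _s_at, which marks a set that may bind messages of several genes.

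Hsp90aa1, the inducible cytosolic HSP90 that finishes the folding of kinases and receptors, rose by less. It measured 9.83, 10.01, 9.94 and 9.97 in old cultured fibroblasts and 10.24, 9.92, 10 and 10.02 in young cultured fibroblasts. In vivo it measured 9.83, 9.30, 9.71 and 9.56 in old mice and 9.71, 9.45, 9.10 and 9.49 in young mice. Old cultured replicate 1 and old in vivo replicate 1 had the same value, and the other cultured arrays lay above all in vivo arrays. The change was 0.47 ± 0.09, or 1.39-fold (limma adjusted p = 0.0001621). It was not past the threshold after cyclic loess between arrays, at 0.16 (adjusted p = 0.0932).

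Hspa1b, the stress-inducible HSP70, went the other way. It measured 8.07, 8.33, 8.32 and 8.43 in old cultured fibroblasts and 8.81, 8.62, 7.85 and 8.00 in young cultured fibroblasts. The in vivo values were 9.62, 9.14, 9.66 and 9.62 in old mice and 9.56, 9.35, 8.68 and 9.84 in young mice. Only young in vivo replicate 3, at 8.68, lay below a cultured array, namely young cultured replicate 1. Hspa1b was lower in culture by a log2 change of -1.13 ± 0.16, or 2.19-fold lower (limma adjusted p = 8.775e-06), and the young groups had the widest spreads of any member, with SDs of 0.47 in culture and 0.49 in vivo. The other 2 probe sets of Hspa1b averaged 3.55 and 3.17, below the 95th percentile of poly-A control values (4.27), and were not tested. Hspa1a is a near-identical copy, and the signal of this probe set could come from either gene, which was not tested. Their promoter windows share 296 of 300 bases, which does not show where the probes bind.

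Dnajb1, the J-domain partner of HSP70 (HSP40), fell in culture too. Its log2 values were 9.76, 9.73, 9.80 and 9.84 in old cultured fibroblasts and 9.78, 9.91, 9.73 and 9.68 in young cultured fibroblasts. In vivo they were 10.44, 10.34, 10.61 and 10.04 in old mice and 10.98, 11.07, 10.80 and 10.85 in young mice. Every cultured array was below every in vivo array, and in vivo every old array was below every young array. The log2 change was -0.86 ± 0.07, or 1.82-fold lower (limma adjusted p = 1.52e-08). The other probe set of Dnajb1 gave -2.09, in the same direction and larger.

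Hspa8, the constitutive HSP70 that also uncoats clathrin vesicles, was the member with the narrowest range. It measured 11.67, 11.63, 11.66 and 11.60 in old cultured fibroblasts and 11.64, 11.67, 11.63 and 11.62 in young cultured fibroblasts. In vivo it measured 11.59, 11.54, 11.62 and 11.57 in old mice and 11.70, 11.66, 11.63 and 11.71 in young mice. Cultured values lay between those of old and young in vivo arrays, with overlap on both sides. The log2 change was 0.01 ± 0.04, with a 95% interval from -0.08 to 0.10 (limma adjusted p = 0.795). That direction does not hold over the settings tried: the change was -0.19 (adjusted p = 0.00249) with arrays scaled to their 75th percentile, a scaling that shifts the all-gene median by -0.20, and -0.27 (adjusted p = 2.993e-05) after cyclic loess.

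The 4 probe sets of Hspa8 did not give the same answer. Those with mean levels of 11.29 and 11.19, close to the 11.63 of the set used, gave log2 changes of -0.18 and -0.22. Both were called lower in culture (limma over all probe sets, adjusted p = 0.0029 and 0.0007). A dimmer set averaged 6.23 ± 0.12 in old cultured and 6.40 ± 0.19 in young cultured fibroblasts, and 9.28 ± 0.12 in old and 9.12 ± 0.15 in young in vivo fibroblasts (SD, n = 4 each). It was lower in culture by a log2 change of -2.89 ± 0.08 (limma over all probe sets, adjusted p = 4.056e-15). The set used for Hspa8 has a name ending in _x_at, which marks probes that may bind other messages. Which transcript each set measures was not tested.

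**Figure D2:**
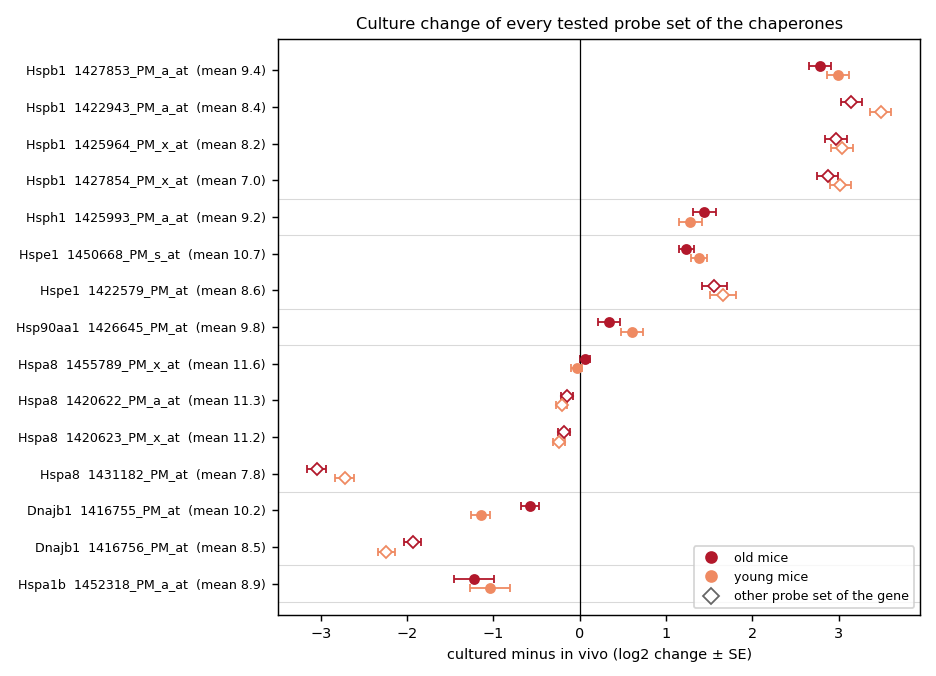
Log2 change of cultured minus in vivo fibroblasts with its SE (x axis) for each tested probe set of the chaperones (y axis, with its mean log2 level), in old mice (dark) and young mice (light). Filled circles mark the set used for each gene, and open diamonds the others. The 4 Hspb1 sets lie together near 3, whereas the dimmest Hspa8 set lies near -3 and the other 3 lie near 0.

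By class, the culture change was 1.31 for the mitochondrial Hspe1 and 0.01 for the constitutive Hspa8, each by the probe set used. The other Hspa8 sets gave -0.18, -0.22 and -2.89, all called lower, so Hspa8 is not shown to be unchanged. Among the 5 inducible members 3 rose and 2 fell, from 2.89 for Hspb1 to -1.13 for Hspa1b. The mean log2 value over the inducible members hides this split: it was 9.75 ± 0.06 in old cultured and 9.79 ± 0.14 in young cultured fibroblasts, and 9.20 ± 0.15 in old and 9.25 ± 0.19 in young in vivo fibroblasts (SD, n = 4 each). The inducible members thus did not move as 1 group. Nor did the HSP70 system, in which Hspa1b and Dnajb1 fell and Hsph1 rose. Differences between classes were not tested, since 2 of the classes hold a single gene.

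The culture change was also taken within each age, which gave the same 4 higher and 2 lower members both times. In old mice 62.8% of all genes were called (30.2% higher, 32.5% lower) and in young mice 71.2% (32.6% higher, 38.6% lower). The cultured and in vivo arrays did not overlap for 5 of 7 members in old mice, all but Hsp90aa1 and Hspa8, beside 58% of all genes. In young mice they did not overlap for 5 of 7, all but Hspa1b and Hspa8, beside 63.6%. Hspb1 rose by 2.78 ± 0.13 in old and 2.99 ± 0.13 in young fibroblasts, Hsph1 by 1.44 ± 0.14 in old and 1.28 ± 0.14 in young ones, and Hspe1 by 1.24 ± 0.09 in old and 1.38 ± 0.09 in young ones. Hsp90aa1 rose by 0.34 ± 0.13 in old fibroblasts (adjusted p = 0.0299), a call lost without any of 5 single arrays, and by 0.61 ± 0.13 in young ones, a call lost after cyclic loess (0.25, adjusted p = 0.0745). Hspa1b changed by -1.22 ± 0.23 in old and -1.04 ± 0.23 in young fibroblasts. For Dnajb1 the log2 change was -0.58 ± 0.11 in old and -1.15 ± 0.11 in young fibroblasts, the widest gap between the ages among the members.

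Age was compared within the in vivo samples next. In vivo, fibroblasts of old mice had less Dnajb1 than those of young mice, and the other 6 measured chaperones were not called. The background was 6.07% of all genes called, 4.49% higher and 1.59% lower in old mice. Dnajb1 averaged 10.36 ± 0.24 in old and 10.93 ± 0.12 in young in vivo fibroblasts (SD, n = 4 each), a log2 change of -0.57 ± 0.11 or 1.48-fold lower (limma adjusted p = 0.005695; exact two-sided permutation p = 0.0286, the smallest that 4 against 4 arrays can give). The groups did not overlap, the highest old array being 10.61 and the lowest young array 10.80. The other probe set gave 9.29 ± 0.16 in old and 9.72 ± 0.12 in young in vivo fibroblasts, a change of -0.43 (adjusted p = 0.0177). Single cell type markers were also called with age in vivo, 1 in each of 4 lists. Csf1r of macrophages was lower (6.46 in old, 7.53 in young mice) and Kcnj8 of pericytes higher (8.23 in old, 7.17 in young mice). The fibroblast marker Col1a2 (-0.64) and the muscle marker Mb (-0.33) were lower. Those 4 lists did not move with these genes: their medians were -0.0025 for macrophage, -0.08 for pericyte and smooth muscle, -0.035 for fibroblast and -0.06 for muscle markers. Of the lists without a call, the keratinocyte list had a median of 0.335, the largest of all marker lists. The medians of the endothelial, T cell and melanocyte lists were 0.0275, -0.0175 and -0.0625. The part of these 4 genes and of the marker lists in the Dnajb1 difference was not tested. In a fit to the 8 in vivo arrays alone the change was no longer past the threshold (adjusted p = 0.066), and 200 genes rather than 900 were called.

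For the other members the in vivo age difference, by the probe set used, was small beside its interval. Hspa8 was lower in every old in vivo array than in every young one, by a log2 change of -0.10 with an interval from -0.22 to 0.03 (limma adjusted p = 0.423; exact permutation p = 0.0286). Dnajb1 and Hspa8 were thus 2 of 7 members whose age groups did not overlap, beside 8.53% of all genes. Hspb1 changed by 0.19 (interval -0.09 to 0.46), Hsp90aa1 by 0.16 (-0.11 to 0.43), Hspe1 by 0.15 (-0.04 to 0.33), Hspa1b by 0.15 (-0.34 to 0.64) and Hsph1 by -0.19 (-0.48 to 0.10). The interval of Hspa1b was the widest of these, and its spread between young in vivo arrays was also the widest. Another probe set of Hspb1 gave a larger age difference in vivo, 0.365 ± 0.12 (limma over all probe sets, adjusted p = 0.101). Its old arrays (6.83 to 6.98) lay just above its young ones (6.32 to 6.82). The remaining Hspb1 sets gave 0.11 and 0.095.

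In culture no chaperone differed between old and young mice at the threshold, and the ages overlapped for all 7, beside 2.06% of all genes without overlap. The background was 0% of genes, since limma called 0 of 14819 (276 genes, or 1.86%, had an unadjusted p below the threshold, and other settings called 0 to 3 genes, or up to 5 with an array left out). Dnajb1 averaged 9.78 ± 0.05 in old and 9.78 ± 0.10 in young cultured fibroblasts (SD, n = 4 each), a log2 change of 0.01 with an interval from -0.22 to 0.23. The estimates of the other members lay between -0.11 for Hsp90aa1 and 0.00 for Hspa8 and Hspe1. The test of the difference between the age effects, culture minus in vivo, called none of the 7 members, beside 0.587% of all genes (0.196% higher, 0.391% lower). For Dnajb1 that difference was 0.57 ± 0.15 (adjusted p = 0.096), reaching 0.0485, among the settings run, only without old in vivo replicate 3, and it was 0.31 for its other probe set (adjusted p = 0.381). Its age effect is therefore not shown to differ between culture and the in vivo state.

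**Figure D3:**
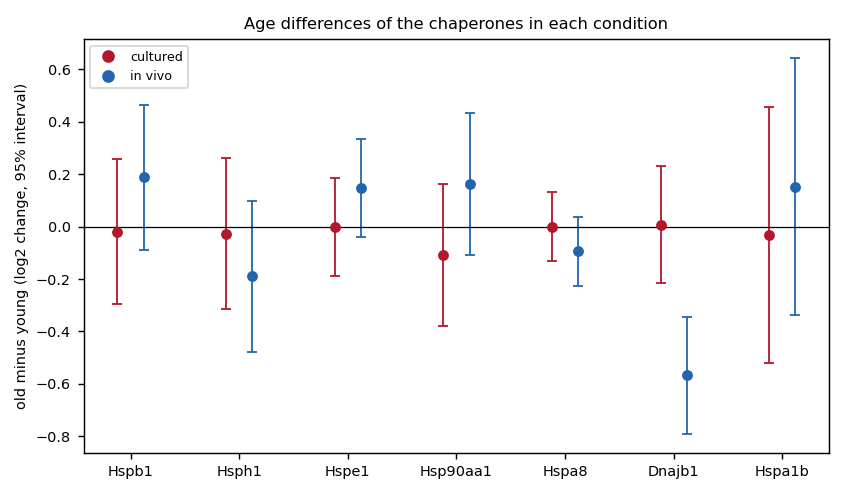
Log2 change of old minus young fibroblasts with its 95% interval (y axis) for each measured chaperone (x axis), in cultured (red) and in vivo (blue) samples. The in vivo interval of Dnajb1 lies wholly below 0, from -0.79 to -0.34, and all other intervals include 0.

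Genes that work with these chaperones were read from lists, as counts of calls to be set beside the shares over all genes, 34.8% higher and 44.7% lower in culture. Among the heat shock factors and their binding proteins, Hsf4 (log2 change -0.68) and Hsbp1, which binds heat shock factor trimers (-0.49), were lower in culture and Hsf2bp (-0.12) was not past the threshold, 3 genes being tested. Hsf2, at 3.38 to 3.50 in the 4 group means, did not pass the filter on dim genes. Among 8 HSP70 and HSP110 relatives 4 rose and 3 fell: Hspa4, an HSP110 exchange factor, rose by 1.80 ± 0.09 and Hspa14, which acts at the ribosome, by 1.68 ± 0.13, whereas Hspa12b (-2.74 ± 0.11) and Hspa2 (-1.88 ± 0.10) fell. Of 7 small heat shock proteins 2 rose and 4 fell, so that both lists had calls at about the share of all genes. Hspb7 rose by 3.15 ± 0.16 and Cryab, alpha B-crystallin, by 1.49 ± 0.11, whereas Hspb8, which pairs with Bag3 in chaperone-assisted autophagy, was lower (-0.99 ± 0.08), as was Hspb3 (-0.28 ± 0.10), a call lost after cyclic loess.

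J-domain proteins and HSP70 or HSP90 cochaperones moved both ways in culture. Of 18 further J-domain genes, those of the mitochondrial list apart, 10 rose and 5 fell, with a median log2 change of 0.49. The 15 of 18 called are near the 79.5% of all genes. Dnajc2, the ribosome-bound J-domain protein, rose by 2.65 ± 0.16 and Dnaja2 by 1.65 ± 0.10. Dnaja1 (-0.55 ± 0.07) and Dnajc6, the auxilin that works with Hspa8 on clathrin coats (-0.49 ± 0.11), were lower, the last with cultured means inside the range of control probe sets. Dnaja1 lost its call when its probe sets were averaged (-0.05, adjusted p = 0.472). Of 25 cochaperones 13 rose and 7 fell, a split of 10 and 10 with arrays scaled to their 75th percentile, and the list median of 0.27 turned to -0.01 after cyclic loess. Bag2, an inhibitor of the ubiquitin ligase Stub1, rose by 2.94 ± 0.11, and Stip1, which bridges HSP70 and HSP90, by 1.65 ± 0.07. Cdc37l1 (-0.87 ± 0.07) and Bag3 (-0.53 ± 0.08) were lower. Bag3 is a nucleotide exchange factor of HSP70.

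The chaperonin and mitochondrial lists were almost uniformly higher in culture. Of 14 subunits of TRiC, the cytosolic chaperonin that folds actin and tubulin, and of prefoldin, which feeds it, 13 rose and 1 fell, beside 34.8% higher and 44.7% lower over all genes, with a median log2 change of 1.34. Pfdn4 rose by 1.93 ± 0.09 and Pfdn1 by 1.78 ± 0.09, and Pfdn5 was lower (-0.28 ± 0.06). All 15 tested mitochondrial chaperones and proteases rose, with a median of 0.90, and 14 of them also with the 75th percentile or cyclic loess. Hspa9, the mitochondrial HSP70, rose by 2.16 ± 0.10 and its exchange factor Grpel1 by 1.58 ± 0.09, beside the 1.31 of Hspe1. The median over all genes was -0.11.

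With age in vivo, the calls in the lists below were higher in old mice, as were 73.9% of the calls over all genes (4.49% of genes higher, 1.59% lower; 55.9% of calls with the 75th percentile). After cyclic loess 1 cochaperone was lower. TRiC and prefoldin had 6 higher and 0 lower genes in old mice of 14: Pfdn1 (0.67 ± 0.13), Cct4 (0.55 ± 0.10), Vbp1 (0.52 ± 0.14), Pfdn6 (0.44 ± 0.12), Pfdn4 (0.43 ± 0.12) and Cct7 (0.28 ± 0.07). Their count was 2 with the 75th percentile, 3 after cyclic loess, 2 with array weights and 0 in a fit to the in vivo arrays alone. Of 25 cochaperones 4 were higher, namely Fkbp5, the glucocorticoid-induced HSP90 immunophilin (0.80 ± 0.15), Ppid (0.76 ± 0.14), Bag5 (0.61 ± 0.15) and Stip1 (0.45 ± 0.10). The mitochondrial list had Dnajc15 (0.70 ± 0.17), Clpp (0.58 ± 0.10) and Dnajc19 (0.28 ± 0.08) higher, the J-domain list Dnajb14 (0.54 ± 0.13) and Dnaja2 (0.50 ± 0.14), and the HSP70 relatives Hspa14 (0.84 ± 0.19). Dnaja2 kept its call in 7 and Dnajc19 in 5 of 25 settings, and the J-domain list had 0 calls with array weights. Clpp was past the threshold in a fit to the in vivo arrays alone (adjusted p = 0.0359) and the other 15 were not, although Clpp lost its call when its probe sets were averaged (0.34, adjusted p = 0.0683). Dnajb1, lower in old mice, stood opposite in sign to all of these called genes. List genes that were not called lay on both sides. Over all tested genes of a list, medians ran from -0.22 for the heat shock factors and their binding proteins to 0.30 for TRiC and prefoldin. As examples, Dnajb4 (9.925 in old, 10.325 in young in vivo fibroblasts), Bag3 (8.34 and 8.61) and Dnaja1 (10.25 and 10.41) lay on the side of Dnajb1. Hspa4 (8.75 and 8.34) lay on the other. For the interaction, Ppid (-0.93 ± 0.20, adjusted p = 0.0491) and Clpp (-0.67 ± 0.14, adjusted p = 0.0357) passed, in 9 and 10 of 24 other settings. Clpp lost the call with the 75th percentile (adjusted p = 0.0686), cyclic loess (0.0634) and its probe sets averaged (-0.37, adjusted p = 0.305).

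**Figure D4:**
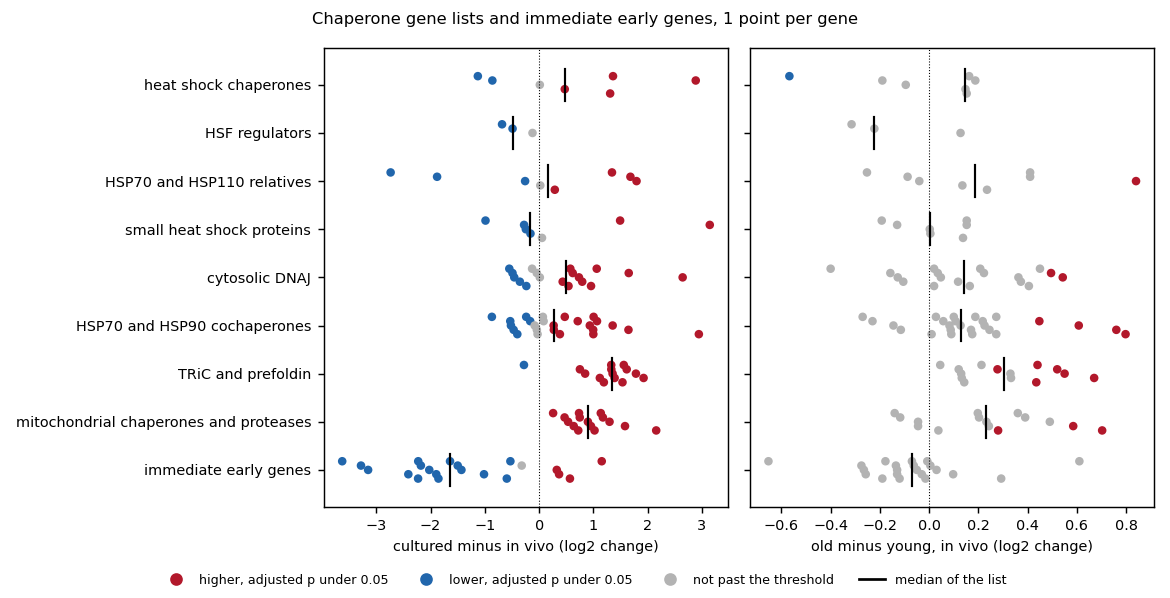
Log2 change of every tested gene (x axis, 1 point a gene) in the chaperone set, 7 related lists and the immediate early genes (rows), for cultured minus in vivo fibroblasts on the left and old minus young in vivo fibroblasts on the right. Red and blue points are genes called higher and lower and black lines are list medians. TRiC and prefoldin centre on 1.34 in the left panel and the immediate early genes on -1.64.

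Several other measures moved with the culture difference. Immediate early genes, which tissue dissociation is known to raise, averaged 8.37 to 8.78 (log2, mean over 21 genes per array) in cultured and 9.78 to 10.07 in in vivo fibroblasts. Of these 21 genes, 16 were lower in culture and 4 higher: Socs3 changed by -3.63 ± 0.16 and Atf3 by -3.28 ± 0.09, against 1.15 ± 0.15 for Fosl1 and 0.57 ± 0.09 for Myc. Hspa1b and Dnajb1 lay on the same side as the list median. Between old and young in vivo fibroblasts, where Dnajb1 differed, 0 of the 21 genes were called and their median log2 change was -0.07. In a fit to the in vivo arrays alone, where 200 genes were called, 1 of the 21 was lower in old mice. Most of the 21 genes nevertheless had a lower mean in old than in young in vivo fibroblasts, the side of Dnajb1. Among these were Jun (10.11 in old, 10.76 in young) and Socs3 (7.77 and 8.04). A minority lay on the other side, among them Fosl1 (8.385 and 7.775). Of the 2 measures of RNA integrity, the beta-actin 3′ minus 5′ probe set difference was 0.10 ± 0.07 in old cultured and 0.07 ± 0.04 in young cultured samples, and -0.46 ± 0.11 in old and -0.41 ± 0.07 in young in vivo samples (SD, log2, n = 4 each). The same difference for Gapdh did not separate the conditions, at -0.15 ± 0.02 in old cultured and -0.11 ± 0.06 in young cultured samples, and -0.14 ± 0.02 in old and -0.08 ± 0.04 in young in vivo samples. The part of these measures in the chaperone results was not tested.

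Fibroblast markers averaged 9.05 to 9.37 over 9 genes in cultured and 10.40 to 10.59 in in vivo arrays, and 8 of the 9 were lower in culture. Of other cell types, 8 macrophage markers averaged 4.31 to 4.47 in cultured and 4.98 to 5.16 in in vivo arrays, and 7 endothelial markers 3.94 to 4.25 in cultured and 4.78 to 5.31 in in vivo arrays. Of those tested, 5 of 6 macrophage, 5 of 7 endothelial and 4 of 7 keratinocyte markers were lower in culture and 0 higher, as were 5 of 5 T cell and 5 of 5 melanocyte markers. Pericyte and smooth muscle markers went both ways, 2 higher and 2 lower of 6, with Myh11 at 8.41 in old cultured and 9.25 in young cultured fibroblasts and 4.46 in old and 4.49 in young in vivo fibroblasts, and Mcam also higher. Of 5 skeletal muscle markers 1 was higher, Acta1, and 3 were lower. In vivo, 3 of the 8 macrophage and 3 of the 7 endothelial markers had group means within the range of control probe sets. So had 3 of 5 T cell markers in old and 2 of 5 in young mice in vivo, and 4 of 5 in each cultured group. Of 6 melanocyte markers, 3 lay in that range in every group. Calls of markers in that range show small shifts near the floor, and the T cell median in culture was -0.19. The 7 keratinocyte markers averaged 4.65 to 4.87 in cultured and 5.23 to 5.57 in in vivo arrays, apart from 6.83 in old in vivo replicate 1, where Krt5 reached 9.68. In bulk RNA a smaller number of cells of a type and less RNA per cell cannot be told apart. That array had the lowest Hsph1 value, and young in vivo replicate 3, the array least like the other in vivo ones, had the lowest value of its group for 6 of the 7 chaperones. Without both arrays 6 of 7 chaperones were still called in culture, Hsph1 changed by 1.26, Hspa1b by -1.23 and Dnajb1 by -0.87, and Dnajb1 was still lower in old mice in vivo (-0.64, adjusted p = 0.00844).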

How the data were processed

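The deposited table gives 45141 probe sets on 16 arrays, and its values were taken as log2 intensities. Per the submitters' processing notes the authors used RMA and the package affy, with no version given. RMA corrects background and is meant to equalise the distribution of values between arrays, so each change is relative to the other genes, and changes of dim genes are narrowed. The deposited values were not fully equal: their 75th percentile was 6.73 to 6.85 in cultured and 6.46 to 6.66 in in vivo arrays. The base of the logarithm and joint normalisation of all arrays are not stated.

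Symbols came from the platform annotation (28898 probe sets with 1 symbol, 551 with several, 15692 not listed). A gene needed 4 arrays above 3.87, the 25th percentile of all values. Under R 4.3.3, limma 3.58.1 estimated the mean of each of the 4 groups (lmFit, then eBayes) with 12 residual degrees of freedom and no block. Single values were also tested by exact permutation of arrays. The promoter search and figures used Python 3.11.15. Replicate numbers follow the order of deposit and pair no samples.

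The members, gene lists and tests were chosen with earlier results of these data known. The genes named were all members with all their probe sets, the 2 called genes with the largest rise and the 2 with the largest fall in culture of each related list, and each list gene called for age or the interaction. Hsf2bp, Hsf2, Dnajb4, Jun, Krt5, Csf1r, Kcnj8, Col1a2, Mb, Myh11, Mcam and Acta1 fall outside that rule and were named after their values were seen.

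The fit was tested on simulated data, in which the share of false calls for age in vivo was several times the threshold. Those calls are therefore less certain than their adjusted p states. For the other contrasts tested the share was close to the threshold. Fewer genes were changed in the simulation than were called here for age in vivo or over both ages in culture, so these shares do not carry over as values. Cultured arrays varied less (median residual SD 0.129) than in vivo arrays (0.185), while the fit gives both the same spread. The number of arrays limits the precision. Arrays correlated at 0.987 to 0.996 within culture, 0.977 to 0.992 in vivo and 0.879 to 0.913 between them. Alternatives covered scaling, the filter, probe sets per gene, the spread model and each array left out. Leaving out the least typical in vivo array of each age was added after seeing the data.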

Additional observations from a re-analysis of the deposited data

Results flagged for a closer look

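Hspa1b in old in vivo fibroblasts was the only member and group in which a single array stood apart, of 28 combinations of a member and a group. Old in vivo replicate 2 measured 9.14 (log2), against 9.62, 9.66 and 9.62 in the other 3, so that 0.923 of the group's range lay between it and its nearest neighbour. A share above 0.829 arises by chance in about 1 in 20 groups of 4. The same array was the lowest of its group for 5 of the 7 chaperones. The part of this array in the results was not tested beyond the fits without it, in which Hspa1b stayed lower in culture.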

How the results depend on the processing

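Of 1064 recomputed log2 changes of the members, other probe sets not counted, 1045 kept their side of the threshold, and the 19 others belonged to Hsp90aa1 (9), Hspa8 (8) and Dnajb1 (2). The sign changed in 24, of which 6 were Hspa8 in culture and the rest age or interaction estimates; 0 of the 24 were called as reported. Hspa8 in culture turned lower with the 75th percentile (-0.19), cyclic loess (-0.27, and -0.18 in old mice), the mean over probe sets (-0.82, and -0.83 in old mice) and its other probe sets (-0.18, -0.22 with -0.19 in old mice, and -2.89 with -3.05 in old mice). Hsp90aa1 in old mice lost its call without old in vivo replicate 2 or 4 or old cultured replicate 2, 3 or 4, as it did with the 75th percentile (0.18) and cyclic loess (0.07), and in young mice it lost its call after cyclic loess (0.25). Testing every probe set gave 18935 calls in culture (15130 old, 16920 young), 142 for the interaction and 1 for age in culture, from a larger number tested. Age in vivo gave 372 genes with array weights and 200 genes and 0 members with only the in vivo arrays, and 540 to 1229 with an array left out (555 without young in vivo replicate 2, 540 without young in vivo replicate 3, 558 without old in vivo replicate 4). Age in culture gave 2 genes with the 75th percentile, 3 with the filter at the 50th percentile, 3 with an intensity trend, 1 with array weights and 0 to 5 with an array left out. The interaction gave 157 genes without the least typical in vivo array of each age and 44 to 199 genes and 0 to 1 members with an array left out, the 1 being Dnajb1 without old in vivo replicate 3. The cause of these moves was not tested.

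The share of higher genes among calls moved by scaling: from 43.7% to 31.6% in culture with the 75th percentile, from 73.9% to 55.9% for age in vivo (58.7% with cyclic loess), and from 33.3% to 55.8% for the interaction (44.8% with cyclic loess). With each of the 16 arrays left out in turn, the interaction call was lost 13 times for Ppid and 10 times for Clpp. Of the list genes called for age in vivo, Dnaja2, Pfdn4 and Dnajc19 kept their calls in 7, 8 and 5 of 25 settings. No paired analysis was possible because the labels do not say which in vivo and cultured samples share a mouse or a day. The dimmest named genes, near the control level of 4.27, can have understated changes.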

Other observations

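Within groups, the values most like each chaperone over the 16 arrays, after each group's mean was taken off, belonged to Dhx40 for Hspa1b (Pearson r = 0.88), Tubg2 for Hsp90aa1 (0.88), Ankrd28 for Hspb1 (0.86), Adam10 for Hsph1 (0.92), Cyth3 for Dnajb1 (0.86), Rbm43 for Hspa8 (0.90) and Sf3b6 for Hspe1 (0.96). These are the highest of many genes and share the arrays' amplification and normalisation, so the values are a description. Among the chaperones themselves, Hspa1b and Hspa8 had an r of 0.14 over the 8 cultured arrays and 0.88 over the 8 in vivo arrays, and Hspa1b and Hsp90aa1 had 0.51 over the cultured and 0.81 over the in vivo arrays. Hspb1 and Dnajb1, the largest rise in culture and the member that differed with age in vivo, had an r of -0.41 in culture and -0.09 in vivo. These in vivo values include young in vivo replicate 3, the lowest array of its group for 6 of the 7 members.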
